A study of Anguilla anguilla with 6 samples.

Results

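The proteasome genes of the eel ovary were taken as all rows of the authors' deposited table whose protein description contains the word proteasome, which gave 84 of 45974 gene models under 43 short names. The table compares ovaries of farm-raised European eels (Anguilla anguilla) after weekly treatments with gonadotropins, 4 animals that the labels class as responders and 2 that they class as non-responders. The labels give no age, batch or definition of a response, all 6 animals were injected, and no uninjected group was analysed here. Pieces from the front, middle and back of each gonad were pooled and 1 mRNA library was made per animal, so each value is an average over all ovarian cell types, and fewer cells of a type cannot be told apart from less RNA per cell. Values are the authors' group means of counts divided by size factors, called normalised counts. Per-library values were not used here, so no mean carries an SD.

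The proteasome is the protease that degrades proteins tagged with ubiquitin. Its barrel-shaped core has outer rings of alpha subunits that gate the entrance and inner rings of beta subunits, of which PSMB5, PSMB6 and PSMB7 cut the chain. A regulatory cap binds ubiquitin chains, removes them and unfolds the substrate with a ring of ATPases. Other caps are activators, which open the core without ubiquitin, and cells exposed to interferon swap the cutting subunits for the immune forms PSMB8, PSMB9 and PSMB10, which favour peptides for MHC class I. In fish eggs the proteasome is known for the breakdown of cyclin B at the end of the meiotic arrest.

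The proteasome was well covered by the table. At least 1 model was found for 7 of 8 listed alpha genes (no row matched PSMA8). Models were also found for PSMB1 to PSMB7, and for PSMB8 and PSMB9 but not PSMB10. PSMD1, PSMD2 and PSMD4 of the cap base, all 9 genes of the cap lid and all 4 activators had models too. No row with the word proteasome matched ADRM1 of the cap base, and other rows were not searched for it. The inhibitor PSMF1, 8 assembly factors and the cap-binding protein ECM29 completed the 84 rows. The 6 ATPases of the cap are described in the table as protease subunits, so they fall outside the word rule. Their 8 models are given beside the others and are not counted among the 84. Of the 84 models, 16 were shorter than 300 bases, down to 103, and can be pieces of a split transcript. PSMD1 alone had 9 models. Models that share a name are therefore not independent genes.

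Summed proteasome transcripts stood at nearly the same level in responders and non-responders, and the only called model was one of the activator subunit PSME2. Summed over the 84 models, the group means per the authors' deposited table came to 84466 normalised counts in non-responders and 83821 in responders, which is 0.669% and 0.717% of all normalised counts. Of the 84 models, 1 was called at the authors' adjusted p under 0.05, and it was lower in responders. Over all 37072 models with a p, 0.183% were called, with 0.062% called lower and 0.121% called higher, and over models averaging 5 or more counts the shares were 0.292%, 0.0989% and 0.193%. An unadjusted p under 0.05 was given to 2 of the 84 models (2.38%) and to 3.67% of all models with a p, or 5.61% of those averaging 5 or more counts. These p-values come from the authors' comparison of libraries of 6 single animals. How the spread between libraries was estimated is not given in the sources used here. The share called among the proteasome models rests on 1 model and is no rate for the group. Since so few models were called anywhere, the absence of a call in a single role is not read as a result about it.

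Most differences were also small in size. When only models averaging 5 or more normalised counts in the 6 libraries were kept, 79 of the 84 models remained, 45 above and 34 below a ratio of 1, and their median log2 (responder over non-responder, computed here from the deposited means) was 0.06. For all 23266 models with such a mean the median was 0.0066. Of the 79, 69 (87.3%) lay within 0.5 of 0 on the log2 scale, against 69.1% of all models. A log2 of at least 1 in size was reached by 5 of the 79, namely PSME2 g19578 below and models of PSMD8, PSMB8, PSMB9 and PSMA6 at low levels above. The filter mean weights responders by 0.667. PSMD8 g43328 (1.96 against 8.87) and PSMB8 g24995 (4.77 against 14.3) passed it with less than 5 normalised counts in non-responders. The models it left out, PSMB7 g24994 and the PSME4 models listed at 0 in non-responders, were also higher in responders. At a mean of at least 1000 normalised counts, all 29 proteasome models lay between -0.34 and 0.39, and 88.5% of the 2417 models at that level lay within 0.5. These counts take in several models of the same gene. The authors' test called no difference under 1.35 in log2 anywhere in the table, and that limit is wider than nearly all differences between the groups in proteasome genes.

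**Figure D1:**
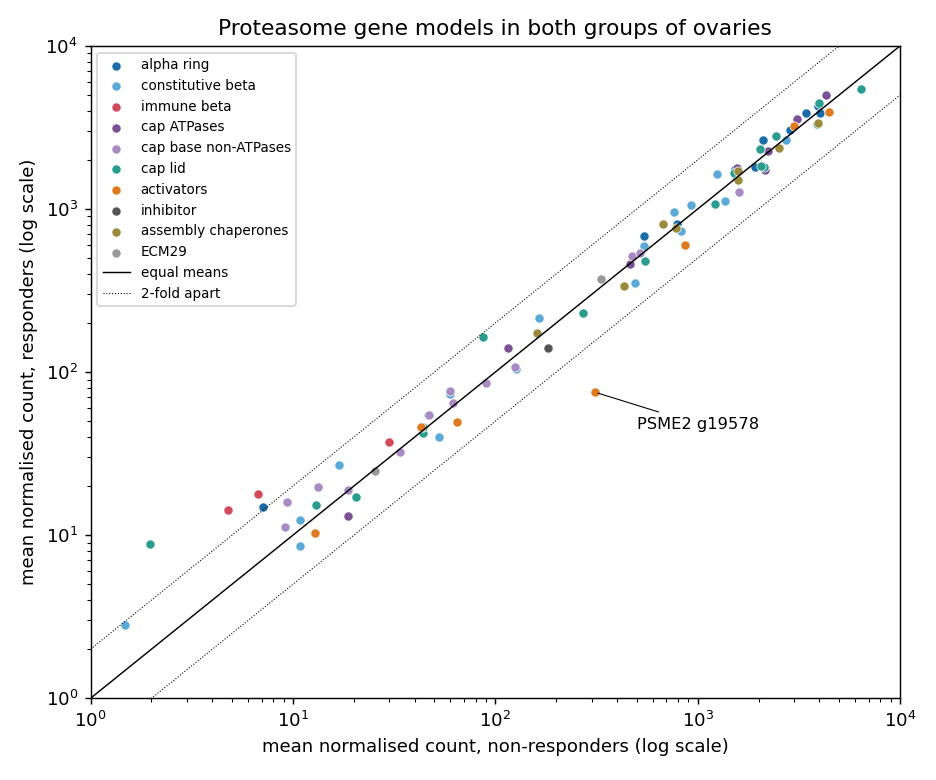
Mean normalised count of each proteasome gene model in non-responders (horizontal, mean of 2 libraries) and responders (vertical, mean of 4), both on log scales, coloured by role, with the 8 cap ATPase models added. The solid line marks equal means and the dotted lines a 2-fold difference; the PSME2 model g19578 lies at 310 against 75.4, and 4 PSME4 models listed at 0 in non-responders are not drawn.

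The activators held the called model. PSME1 and PSME2 build a ring known in mammals to be induced by interferon gamma, PSME3 forms a nuclear ring of its own, and PSME4 is a large nuclear activator known from mouse testis, where it takes part in histone degradation. PSME2 had 3 models. Per the authors' deposited table, g19578 fell from 310 normalised counts in non-responders to 75.4 in responders (log2 -2.04, adjusted p = 5.56e-05). It ranked 14th by p among the 68 called models of the table and 7th among the 23 that were lower. The other full-length PSME2 model, g14964, stood at 866 against 598 per the authors' deposited table (log2 -0.53, p = 0.125) and did not pass. A piece of 167 bases, g32939, had 12.8 against 10.3 per the authors' deposited table, with a deposited p of 0.627.

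Of the PSME2 models, g14964 was the more abundant in both groups. Per the authors' deposited table g19578 made up 26.1% of the summed PSME2 normalised counts in non-responders and 11.02% in responders. Their sum went from 1189 to 684 (log2 -0.80), and the sum without g19578 had a log2 of -0.53. Whether the log2 of g19578 differs from that of g14964 was not tested, since the columns of single libraries could not be matched to labels. The best protein match of g19578 was bovine PSME2 with a transcript of 1034 bases, and that of g14964 was human PSME2 with 1084 bases. Reads that fit both models could have been split between them, and how such reads were counted is not given in the sources used here.

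The partner subunit PSME1 (g1451) stood at 4444 normalised counts in non-responders and 3954 in responders per the authors' deposited table (log2 -0.17, p = 0.573). The summed PSME2 models were 26.8% of PSME1 in non-responders and 17.3% in responders, in normalised counts not divided by length. The PSME1 transcript has 1351 bases, longer than the full-length PSME2 models of 1084 and 1034 bases, so these shares understate PSME2 per length. PSME3 (g6383) was also abundant and close in both groups, at 3004 against 3242 per the authors' deposited table (log2 0.11, p = 0.803). PSME4 was low. Its models with the highest means had 64.9 against 49.7 (g6273, p = 0.382) and 42.7 against 46.3 (g4945, p = 0.857) per the authors' deposited table, and the other 4 were listed at 0 in non-responders and at 0.214 to 1.46 in responders. Of the 7 activator models with a mean of at least 5, 5 lay below and 2 above a ratio of 1 (median log2 -0.32). PSME2 gave 3 of these 7 models. The median was -0.276 with 1 model per name and, in a variant added after seeing the data, -0.244 without g19578.

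**Figure D2:**
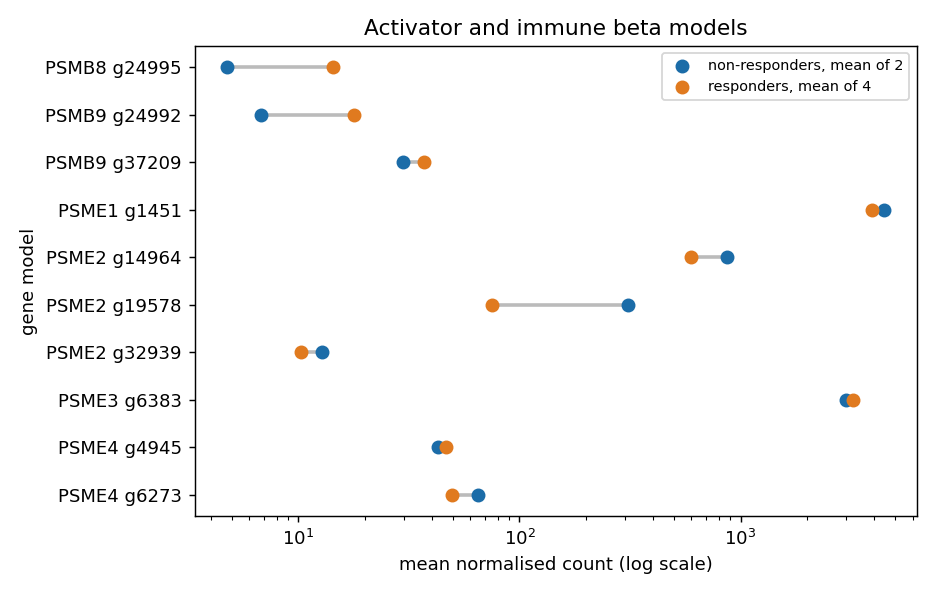
Group means of the activator and immune beta models in normalised counts on a log scale, as the authors' means over 2 non-responder and 4 responder libraries, without error bars because values per library were not used. PSME2 g19578 spans 310 to 75.4, while PSME1 and PSME3 overlap closely; both longer immune models, at 4.77 against 14.3 and 6.74 against 17.9, lie at the low end.

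Marker lists of other cell types also stood at different sums in the groups, with no marker model called, against 0.183% of all models with a p. The 15 models of the oocyte marker list (ZP2, ZP3, ZAR1, GDF9, BMP15 and DDX4) summed to 621518 normalised counts in non-responders and 408341 in responders, 14 of them below a ratio of 1. The egg coat gene ZP2 had the highest level among them in both groups, at 254959 against 171541, and ZP2 and ZP3 models made up most of the sum. The oocyte growth factor genes were close between groups, with GDF9 (g5262) at 2213 against 2258 and BMP15 (g4183) at 2572 against 2410. ZAR1 was lower in responders, at 21663 against 11238 (g14809) and 8633 against 6971 (g19436). DDX4 was also lower, at 546 against 432 (g14613) and 64.0 against 49.0 (g28375). The smallest unadjusted p-values of the list per the authors' deposited table were 0.00210 (ZAR1 g14809, adjusted p = 0.347) and 0.00469 (ZP3 g16004, adjusted p = 0.534). The 7 endothelial models summed to 192 and 116, with most of the difference in a model of the junction gene CDH5 (g17569) at 95.5 against 37.4, which had an unadjusted p of 7.19e-04 and an adjusted p of 0.195 per the authors' deposited table. Models of EGFL7 (g3251, 11.98 against 17.0) and CDH5 (g3545, 6.03 against 7.21) lay above a ratio of 1. The 16 leukocyte models summed to 91.7 and 119, with 1 CSF1R and 1 LCK model at 0 in both groups. The erythrocyte list matched 2 models, of SLC4A1 and ALAS2, with sums of 38.98 and 23.2, and no row carried the globin names hba or hbb. The part of cell composition in the fall of PSME2 g19578 was not tested.

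The longer models of the immune beta subunits had low counts in both groups. PSMB8, the immune form of PSMB5, stood at 4.77 normalised counts in non-responders and 14.3 in responders per the authors' deposited table (g24995, log2 1.59, p = 0.0879). PSMB9, the immune form of PSMB6, had 2 models, at 6.74 against 17.9 (g24992, log2 1.41, p = 0.191) and, for a piece of 154 bases, 29.8 against 37.1 (g37209, log2 0.32, p = 0.626) per the authors' deposited table. All 3 models lay above a ratio of 1, and none passed. Per kilobase of transcript, PSMB8 stood at 4.53 and 13.6 normalised counts, while PSMB5, the subunit it replaces, stood at 78.5 and 91.9 in a model of 593 bases. On the same scale the longer PSMB9 model stood at 8.27 and 21.99 and the piece of 154 bases at 193 and 241, the latter above PSMB5, and PSMB6, which PSMB9 replaces, stood at 768 and 872. The sum of the 3 immune models of 41.3 against 69.3 normalised counts compares with 9391 against 9621 over the 17 constitutive beta models.

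The models g24992 to g24995 carry consecutive identifiers and are all described as beta subunits. Those between PSMB9 and PSMB8 were matched to a salmon PSMB6-like protein (g24993, 10.8 against 8.63, p = 0.730) and to PSMB7 (g24994, 1.49 against 2.81, p = 0.730) per the authors' deposited table, and both were counted with the constitutive subunits because of their descriptions. The 4 models together had 43.7 normalised counts in responders and a log2 of the sums of 0.88. RefSeq's gene table of a later eel assembly (fAngAng1) lists psmb8a, psmb13a, psmb12 and psmb9a as direct neighbours followed by tap2a. No model identifier occurs in that table, so the models were not assigned to these genes.

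The constitutive core held no called model, against 0.183% called of all models with a p. Most alpha models stood at a high level and the short PSMB5 models at a low one. Of the 12 alpha models 10 lay above and 2 below a ratio of 1 (median log2 0.11), with the smallest p at 0.238. PSMA6, an alpha ring subunit, had the model with the highest log2 of the ring (g14482, 7.12 against 14.8, log2 1.05) per the authors' deposited table, at a low level, while its main model g4408 stood at 3945 against 4310 (log2 0.13, p = 0.765). PSMA7 (g23594), another alpha subunit, was the most abundant non-responder alpha model at 4041 against 3874 (log2 -0.06, p = 0.850), and a PSMA7 model at a lower level, g15304, stood at 543 against 688 (log2 0.34) per the authors' deposited table. PSMA3 (g17912) had 2093 against 2643 per the authors' deposited table (log2 0.34, p = 0.300). The 11 alpha models with a mean of at least 50 ranged from -0.08 to 0.34 in log2.

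Of the constitutive beta ring, 16 of 17 models had a mean of at least 5, 9 above and 7 below a ratio of 1 (median log2 0.16, or 0.038 with 1 model per name), and none passed. The smallest p belonged to a model of PSMB4, a structural beta subunit, at 490 against 353 normalised counts per the authors' deposited table (g26569, log2 -0.47, p = 0.170). A shorter PSMB4 model with a higher mean stood at 830 against 734 (g32028, log2 -0.18, p = 0.602) per the authors' deposited table. PSMB3 (g15192), also structural, lay above a ratio of 1 at 1251 against 1639 (log2 0.39, p = 0.272) per the authors' deposited table. PSMB1 had models at 2730 against 2636 (g3642, log2 -0.05) and 767 against 954 (g10342, log2 0.31, p = 0.369) per the authors' deposited table. Summed, the PSMB1 models had a log2 of 0.04. PSMB6, which cuts after acidic residues, had its main model at 929 against 1055 (g10270, log2 0.18, p = 0.645) per the authors' deposited table. A lower PSMB6 model stood at 164 against 216 (g22955, log2 0.39, p = 0.301) per the authors' deposited table. A PSMB6 piece of 145 bases had 16.8 against 27.0 (g44023, log2 0.68, p = 0.253) per the authors' deposited table. Summed over models of each name, the cutting subunits PSMB5, PSMB6 and PSMB7 had log2 values of 0.22, 0.23 and 0.11.

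**Figure D3:**
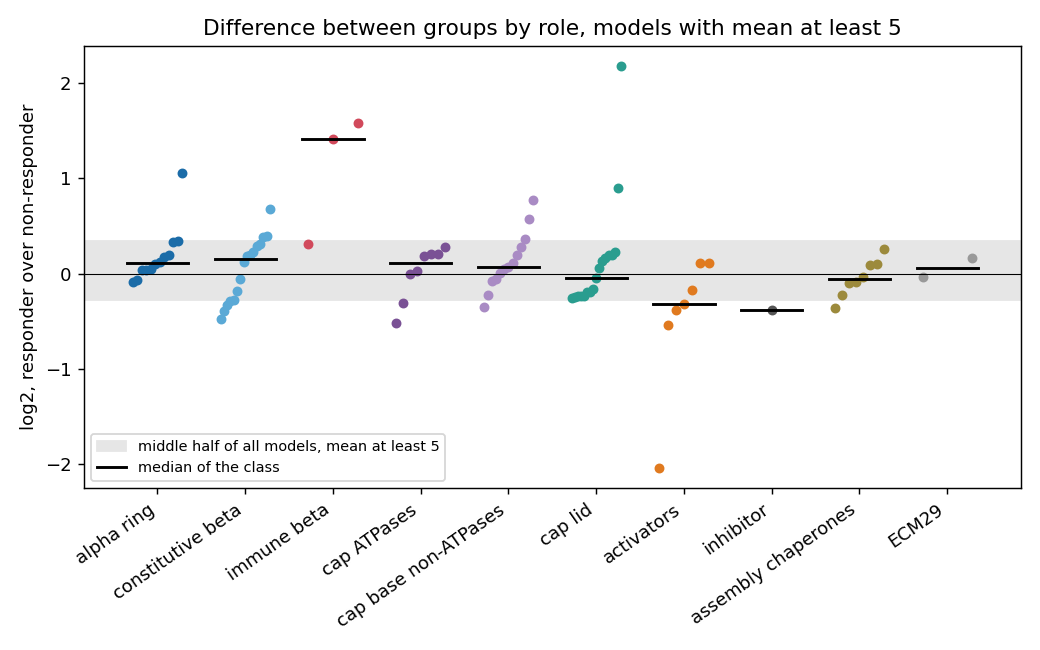
Log2 of the responder over the non-responder mean for each model with a mean of at least 5 normalised counts, by role, with the class median as a bar and the interquartile range of all 23266 such models (-0.28 to 0.35) shaded. Class medians lie inside the shaded band except those of the immune beta models (1.41), the activators (-0.32) and the single inhibitor model (-0.38). The activator median is inside the band without PSME2 g19578 (-0.244) or with 1 model per name (-0.276), as the lower edge is -0.280.

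The cap showed no called model, against 0.183% called of all models with a p. The 13 models of PSMD1, PSMD2 and PSMD4 had 9 above and 4 below a ratio of 1 (median log2 0.07), and 8 of those above were models of PSMD1. The median was -0.083 over transcripts of at least 500 bases, and the log2 of the summed counts was -0.13. PSMD2, a scaffold of the base that docks ubiquitin carriers, stood at 1604 against 1263 normalised counts per the authors' deposited table (g5108, log2 -0.34, p = 0.290), and PSMD4, a ubiquitin receptor, at 516 against 536 (g4826, log2 0.05, p = 0.831). The 9 models of PSMD1, the other large scaffold, ranged from -0.06 to 0.77 in log2, with 8 above a ratio of 1, the highest being a piece of 160 bases (g44288, 9.32 against 15.9, p = 0.308) per the authors' deposited table. Summed, they had a log2 of 0.15. A further PSMD1 piece of 177 bases, g33707, had 59.6 against 76.7 (log2 0.36, p = 0.401) per the authors' deposited table. The 8 models of the ATPase ring, which unfolds substrates, had 5 above and 3 below a ratio of 1 (median log2 0.11), and the smallest p among them per the authors' deposited table was 0.310.

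In the lid, which holds the deubiquitinase PSMD14, 8 of 17 models lay above and 9 below a ratio of 1 (median log2 -0.05, or 0.064 once both groups were scaled to equal sums). PSMD8, a lid subunit, had the second smallest p of all proteasome models. Its model g23352 stood at 87.2 against 163 normalised counts per the authors' deposited table (log2 0.90, p = 0.0210, adjusted p = 1) and did not pass. A PSMD8 piece of 178 bases had 1.96 against 8.87 (g43328, log2 2.18, p = 0.0710), whereas the main PSMD8 model stood at 2060 against 1843 (g19175, log2 -0.16, p = 0.620) per the authors' deposited table. The 3 models together had 2149 and 2015 normalised counts (log2 -0.09).

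PSMD12 (g20042), a lid subunit, had the highest mean of the 84 models, at 6441 against 5435 normalised counts per the authors' deposited table (log2 -0.25, p = 0.375). PSMD7, the partner of PSMD14 in the lid, followed in the lid with 3978 against 4463 (g3309, log2 0.17, p = 0.659) per the authors' deposited table. A lower PSMD7 model went the other way, at 2125 against 1810 (g9813, log2 -0.23, p = 0.434) per the authors' deposited table. PSMD14 itself (g9799) had 1512 against 1654 (log2 0.13, p = 0.727) per the authors' deposited table.

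Assembly factors and the inhibitor held no called model either, against 0.183% called of all models with a p. Of the 8 assembly models, 3 lay above and 5 below a ratio of 1 (median log2 -0.06, or 0.055 once both groups were scaled to equal sums). PSMG1 and PSMG2, which pair as a chaperone of the alpha ring, had 3955 against 3390 (g2160, log2 -0.22, p = 0.390) and 430 against 336 (g37317, log2 -0.36, p = 0.256) normalised counts per the authors' deposited table. PSMG3 and PSMG4, which form the other pair, lay above a ratio of 1, with log2 values of 0.26 and 0.10. POMP, which guides beta ring assembly, stood at 2518 against 2360 (g5851, log2 -0.09, p = 0.717) per the authors' deposited table. The inhibitor PSMF1 had 183 against 141 (g6976, log2 -0.38, p = 0.307) per the authors' deposited table. ECM29, which binds the core and the cap together, had 333 against 373 (g9973, log2 0.16, p = 0.574) and, for a piece of 369 bases, 25.3 against 24.7 (g32672, p = 0.999) per the authors' deposited table.

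Levels spanned a much wider range between subunits than between the groups of eels. Per kilobase of transcript, and taking the model with the highest mean of each name, alpha subunits ranged in non-responders from 713 normalised counts for PSMA1 to 3644 for PSMA7, and in responders from 732 to 3493 for these genes. In the lid the range was 129 for PSMD3 to 3356 for PSMD12 in non-responders, and 110 to 2832 in responders. PSMB5 was low for a constitutive subunit, at 78.5 normalised counts per kilobase in non-responders and 91.9 in responders. That level is of a model of 593 bases (g21236), and the other PSMB5 model has 300 bases (g29451), so both can be pieces of the gene. Of the assembly factors, PSMG1 reached 3889 and 3334 normalised counts per kilobase, above every core subunit in non-responders. Subunits whose gene is split over several models can be misstated on this scale in either direction. For PSMB4 the model used has 384 bases (g32028) and stood at 2162 in non-responders and 1910 in responders. The PSMB4 model of 1177 bases (g26569) stood at 416 and 300 per kilobase. The spread between animals behind these levels was not analysed here.

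**Figure D4:**
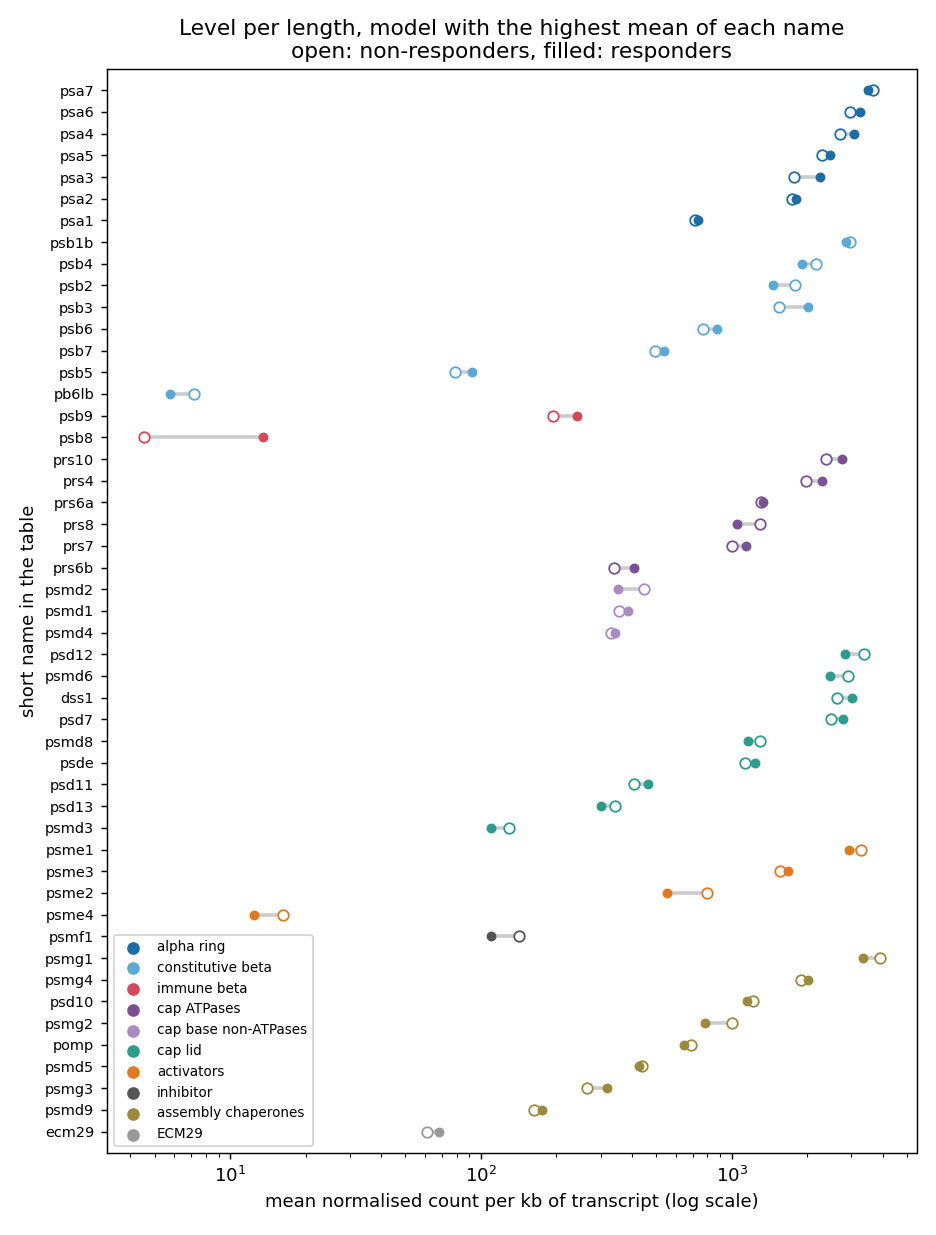
Mean normalised count per kilobase of transcript (log scale) for the most abundant model of each short name, in non-responders (open) and responders (filled), coloured by role and ordered within a role by the non-responder level. The names psa, psb and prs stand for PSMA, PSMB and PSMC proteins, psd and psmd for PSMD proteins and psde for PSMD14; most open and filled points nearly coincide, whereas the levels of different subunits span from 4.53 (psb8) to 3889 (psmg1) in non-responders.

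Genes that work with the proteasome were read from a list of partners. Of 62 models of the ubiquitin and shuttling genes, none was called, against 0.183% of all models with a p. Of the 49 with a mean of at least 5, 20 lay above and 29 below a ratio of 1 (median log2 -0.10). The smallest p-values were those of a piece of DDI2, a shuttle protein, at 4.69 against 0.217 normalised counts (g39493, p = 0.0343), and of NFE2L1, the transcription factor that raises proteasome genes when the protease is blocked in mammals, at 25.7 against 51.9 (g20813, log2 1.02, p = 0.0363) per the authors' deposited table. A further NFE2L1 model stood at 204 against 160 (g13557, p = 0.319) per the authors' deposited table.

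Antigen processing and interferon response genes had no called model, against 0.183% called of all models with a p. Most of their models with a mean of at least 5 were higher in responders. Of 12 antigen processing models with a mean of at least 5, 11 lay above a ratio of 1 (median log2 0.42), against 11765 of 23266 over all models. That mean weights responders by 0.667, so models low in responders pass it less easily. Left out by it were models of tapasin (g21347, 9.49 against 2.17), ERAP1 (g45773, 6.03 against 2.16) and TAP2 (g28075, 3.28 against 0.486), each lower in responders. TAP2 and TAP1, which together carry peptides from the proteasome into the endoplasmic reticulum, had 2.03 against 34.6 (g13907, log2 4.09, p = 0.0526) and 17.2 against 105 (g5001, log2 2.61, p = 0.110) normalised counts per the authors' deposited table. Of 11 interferon response models, 8 lay above a ratio of 1 (median log2 1.10), with an antiviral MX model at 10.6 against 22.8 (g40174, log2 1.10, p = 0.1003) per the authors' deposited table. The 7 MX models ranged from -0.99 to 2.86 in log2. Of 7 leukocyte marker models with a mean of at least 5, 5 lay above a ratio of 1 (median log2 0.50), all of CORO1A, LCP1 or SPI1. A further CORO1A model and PTPRC (g6670, 23.7 against 20.9) lay below. Under that mean, the LCK and CSF1R models with counts lay below a ratio of 1, and models of MPEG1 and LCP1 above. The part of leukocytes in these values was not tested. PSME2 g19578, at log2 -2.04, lay below every partner and leukocyte model with a mean of at least 5. Under that mean, DDI2 g39493 (log2 -4.43), TAP2 g28075 (log2 -2.755) and tapasin g21347 (log2 -2.13) lay lower than it.

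**Figure D5:**
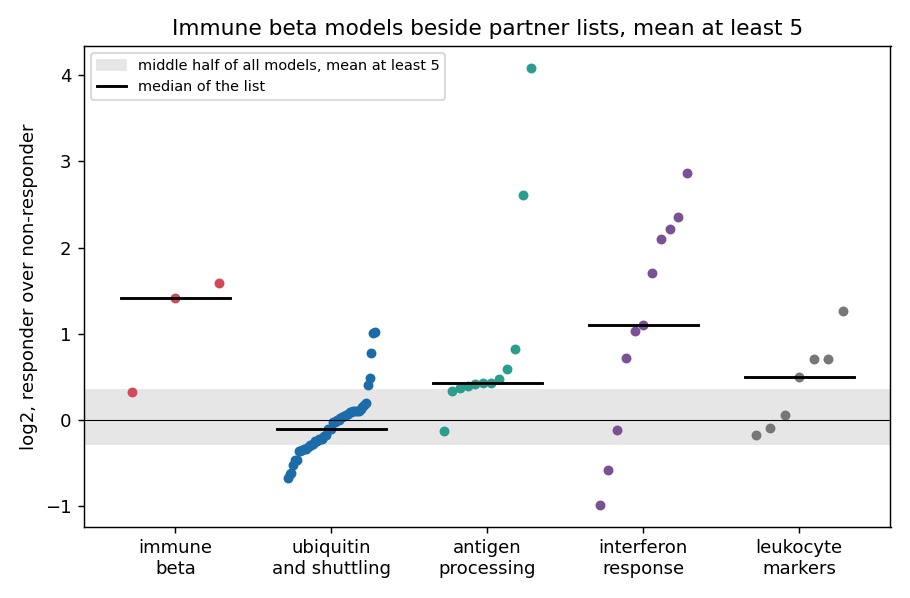
Log2 of the responder over the non-responder mean for the 3 immune beta models and for the models of the ubiquitin, antigen processing and interferon lists and the leukocyte markers, all with a mean of at least 5 normalised counts, with the list median as a bar and the interquartile range of all such models shaded. Antigen processing (median 0.42) and interferon response (median 1.10) models lie mostly above 0, with no model called, as do the leukocyte markers (median 0.50), and the ubiquitin list (median -0.10) lies around it.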

How the data were processed

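The only table used holds the authors' own comparison, and its file name names DESeq. Version, aligner, counter and genome build were not given in the sources used here. The authors deposited a mean signal for each condition, a base mean per the file headers, in other words counts after division by size factors. Weighting condition A by 0.333 and B by 0.667 returns the overall mean in each row (largest deviation 3.49e-10). A thus pools 2 libraries and B 4, the numbers that the labels give for non-responders and responders. The deposited fold is the ratio of B to A. The deposited p-value and adjusted p-value cover 37072 models, and all 8902 remaining models are listed at 0. The table's 6 columns of single libraries carry names that match no label and stayed unused. Read depth, the spread between animals, leaving out animals and a count test were therefore not analysed here, and the authors' adjusted p under 0.05 served as the test throughout.

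Log2 values, sums, medians and levels per kilobase (of the deposited longest transcript length) were computed with Python 3.11.15 and pandas 2.3.3. Benjamini-Hochberg adjustment was tested on simulated data. Short names such as psb8 were read as gene symbols from the table's descriptions, and 0 model identifiers occur in RefSeq's gene table. Named were the called model, all immune beta and activator models, in each other role the 2 models with the smallest p and the 2 with the highest mean, the 5 largest and 5 smallest log2 values at a mean of at least 50, and, in each partner list, the 2 smallest p-values. A few other models are named for comparison. Of the models this rule names, 1 is not reported here. Members and lists were chosen with earlier results of these data known. No protein or transcript sequence was used here.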

Additional observations from a re-analysis of the deposited data

How the results depend on the processing

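Alternatives were compared with the main values at a tolerance of 0.1 in log2, since no spread between libraries was analysed. PSME2 g19578 was the only called proteasome model under each adjustment tried, with an adjusted p of 3.49e-05, 2.54e-05 and 2.58e-05 when p was re-adjusted over models averaging at least 5, 20 or 50 counts, and at an adjusted p under 0.1. The called share went from 0.183% of all models with a p to 0.352%, 0.530% and 0.504% of the models kept by these filters. Rescaling both groups to equal sums adds 0.11 to every log2, which moved the medians to 0.17 (all proteasome models), 0.23 (alpha), 0.27 (constitutive beta), 1.52 (immune beta), 0.19 (base without ATPases), 0.064 (lid), -0.21 (activators), 0.055 (assembly), 0.18 (ECM29) and 0.22 (ATPases), turning the lid and assembly medians positive. Taking 1 model per name moved the medians of the constitutive beta ring to 0.038, of the immune beta models to 0.95, of the lid to -0.16 and of ECM29 to 0.16. A mean of at least 50 moved those of the lid to -0.17 and of ECM29 to 0.16, and a pseudocount of 1 that of the immune beta models to 1.29. Added after seeing the data, transcripts of at least 500 bases gave -0.083 for the base, -0.16 for the lid and 0.16 for ECM29, and counting g24993 and g24994 as immune gave 0.86. Of 40 named log2 values, 36 kept their sign at equal sums, and those of PSMA7 g23594, PSMB1 g3642, POMP g5851 and ECM29 g32672 turned positive. Leaving out animals was not run, and no paired analysis applies, since each animal gave 1 library and belongs to 1 group. With 2 non-responders and no library column matched to a label, only the authors' p could take the spread between animals into account. How the authors estimated that spread is not given in the sources used here. The size of that spread was not measured here.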

Other observations

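The neighbours of the PSME2 models were looked up after their values were seen. The model numbered just before g19578, g19577, was matched to RNF31, the catalytic subunit of the complex that builds linear ubiquitin chains. Per the authors' deposited table it stood at 46.3 normalised counts in non-responders and 13.9 in responders (log2 -1.73, p = 0.00649, adjusted p = 0.606) and did not pass. The model just after, g19579, was matched to LSM5 and stood at 566 against 588 (log2 0.06, p = 0.970) per the authors' deposited table. The other full-length PSME2 model, g14964, was also preceded by an RNF31 model, g14963, at 7.35 against 4.55 (p = 0.574), and a further RNF31 model, g31995, had 7.99 against 6.23 (p = 0.687) per the authors' deposited table.

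RefSeq's table of the later eel assembly lists 1 psme2 gene, with lsm5 and avl9 next to it on one side, and g19579 and g19580 were matched to LSM5 and AVL9. PSME1 (g1451) is followed by a model of DCAF11 (g1452, 667 against 712 per the authors' deposited table), and that table also lists dcaf11 near psme1. In both, tm9sf1 and fen1 come before psme1, and thtpa and zfhx2 after dcaf11, in the same order. The identifiers thus ran in the order of the later assembly around PSME1. Around g19578 only LSM5 and AVL9 matched by name. The model after AVL9 was matched to CASR, where RefSeq lists kbtbd2. On the other side RNF31 came next to g19578, where RefSeq lists an unnamed gene and then irf9. The deposited table gives no positions, and RefSeq's table has 0 rows named rnf31. The part of a shared position in the low values of PSME2 g19578 and RNF31 g19577 in responders was not tested.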
